A study of Homo sapiens with 7 samples.

Results

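The genes described here are the 4 TEAD transcription factors (TEAD1, TEAD2, TEAD3 and TEAD4), their coactivators YAP1 and WWTR1, the TEAD-binding cofactors VGLL2, VGLL3 and VGLL4, and the kinase LATS2. They were chosen by name, with earlier results of these data known, and all 10 are among the 60234 genes of the deposited expression table. Poly-A RNA had been sequenced from cardiomyocytes made from WTC-11, an established line of human induced pluripotent stem cells, after 35 days of maturation. All cultures then received an antisense oligonucleotide (ASO) without a transfection step, at 2 uM for 96 h. In 3 libraries the ASO had a scrambled sequence, and in 4 it was directed against MYH7B, which the title of the study calls a regulatory long noncoding RNA of the heart. A single stem cell line and a single targeting ASO label were used. No label names separate differentiations or cultures, so p-values measure only the spread between these libraries.

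The column of MYH7B ASO replicate 1 does not follow the gene order of its table, so the comparisons are between scrambled ASO replicates 1, 2 and 3 and MYH7B ASO replicates 2, 3 and 4. Values of replicate 1, put into the gene order of another annotation release, are given beside them. Mitochondrially encoded genes took 17.2% of the TPM of replicate 1 and 27.4% to 33.6% in the other libraries, which leaves a larger share of the fixed total to its other genes, and its levels were not corrected for this. Levels are in TPM, a measure of transcripts scaled to the same total in each library and corrected for transcript length, so that genes can be compared with each other. Changes are log2 fold changes of TPM + 1 from limma, and a gene is called where its p, adjusted over all 15988 genes tested, is under 0.05. The target itself was 23.0, 36.5 and 25.1 TPM with the scrambled ASO and 9.30, 5.65 and 6.31 TPM with the MYH7B ASO. MYH7B fell by 1.85 on the log2 scale (SE 0.24, limma adjusted p = 0.0109), and it was 1.29 TPM in replicate 1. Without MYH7B ASO replicate 4, with replicate 1 added, or with no filter on low values, MYH7B was not called (limma adjusted p = 0.0618, 0.0525 and 0.0779). A comparison table deposited by the authors called it lower (log2 fold change -1.575, adjusted p-value 1.2e-13).

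TEAD proteins bind DNA through a shared TEA domain but need a partner to activate transcription. YAP1 and TAZ, the product of WWTR1, are the main coactivators, and the kinases LATS1 and LATS2 of the Hippo pathway phosphorylate them and keep them out of the nucleus. Vestigial-like (VGLL) proteins bind TEAD on an overlapping surface, and VGLL4 thereby competes with YAP1. In heart muscle TEAD factors bind M-CAT elements, short sequences that were first described in the promoter of cardiac troponin T and lie near many contractile genes.

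Of these genes TEAD3 and TEAD1 were called lower with the MYH7B ASO and none was called higher. The call of TEAD3 was kept when any 1 library was left out, and that of TEAD1 was not. TEAD3 was at 0.267 times its scrambled ASO level and TEAD1 at 0.578 times, while the coactivators, VGLL4, LATS2, TEAD2 and TEAD4 did not pass the test. Thus 2 of the 8 genes with enough signal to test were called, both lower, against 1.66% of all tested genes called, 1.48% called lower and 0.181% called higher. Neither these genes nor the lists below were chosen blind to these data, so such counts are descriptive and no test. In 3 of the 8 the groups did not overlap, TEAD1 and TEAD3 being lower and TEAD2 higher, against 21.2% of all tested genes (14.1% lower and 7.11% higher). With replicate 1 added 1 member was called, TEAD3, against 1.07% of genes. VGLL2 and VGLL3 were below the minimum mean of 1 TPM and were not tested. The median log2 fold change of the 8 was 0.13, against -0.04 over all tested genes.

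**Figure D1:**
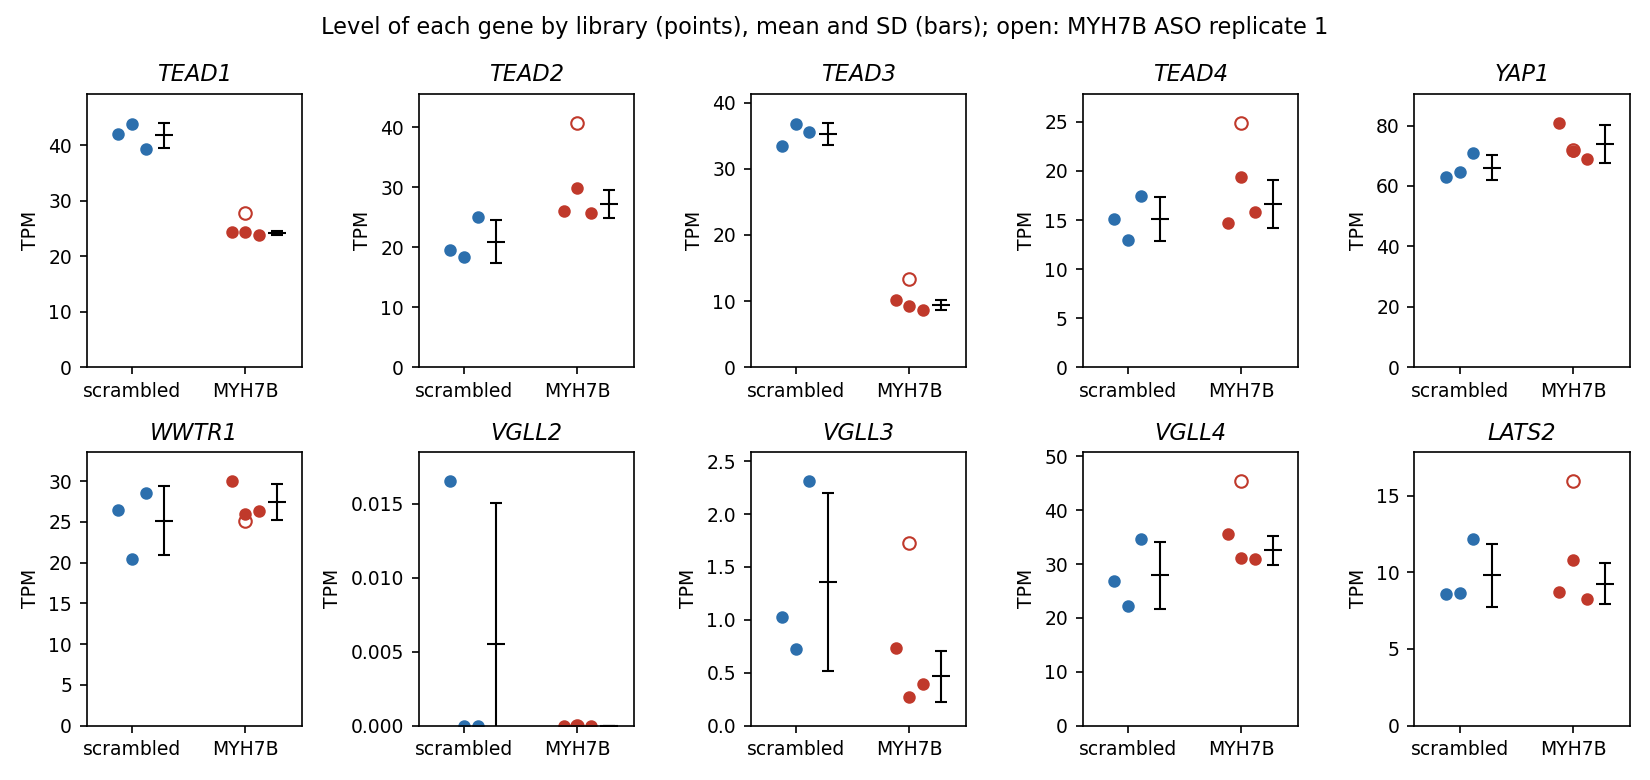
Level in TPM (vertical axis, starting at 0) of each of the 10 genes in every library with the scrambled ASO (blue) and the MYH7B ASO (red), with the mean and SD of 3 libraries per group beside them and MYH7B ASO replicate 1 as an open circle that is not part of the mean. For TEAD1 and TEAD3 every MYH7B ASO library, the open one included, lies below every scrambled ASO library.

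TEAD3 is expressed in many tissues and is one of the TEAD genes active in heart muscle. Its level was 33.5, 36.8 and 35.5 TPM with the scrambled ASO and 10.2, 9.32 and 8.70 TPM with the MYH7B ASO. The groups were far apart, and replicate 1 with 13.4 TPM was also below every scrambled ASO library. The group means were 35.3 ± 1.68 and 9.41 ± 0.76 TPM (SD, n = 3 each). TEAD3 fell by 1.80 on the log2 scale (SE 0.15, 95% interval -2.14 to -1.47, limma adjusted p = 0.00209). Among the 15988 tested genes it ranked 8 by p and 83 by fold change from the lowest. TEAD3 was called under each alternative that had no replicate block, including each fit without 1 library, with log2 fold changes from -1.90 to -1.48. In the authors' deposited table its log2 fold change was -1.68 with an adjusted p-value of 3.7e-29.

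TEAD1, also known as TEF-1, is the founding member of the family and is required for heart development in mice. It was 42.1, 43.9 and 39.4 TPM with the scrambled ASO and 24.3, 24.4 and 23.8 TPM with the MYH7B ASO. The libraries of a group lay close together and the groups did not overlap. Replicate 1, with 27.8 TPM, was above the other 3 of its group and below the scrambled ASO libraries. The group means were 41.8 ± 2.26 and 24.2 ± 0.31 TPM (SD, n = 3 each). TEAD1 fell by 0.76 on the log2 scale (SE 0.13, 95% interval -1.07 to -0.46, limma adjusted p = 0.0316). The call was lost in all 6 fits that left out 1 library (limma adjusted p from 0.0633 to 0.132) and with replicate 1 added (0.0657), at log2 fold changes from -0.81 to -0.72. TEAD1 had a log2 fold change of -0.67 in the authors' deposited table (adjusted p-value 5.4e-05).

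TEAD2 is best known from embryonic and neural tissue. Its level was 19.5, 18.3 and 24.96 TPM with the scrambled ASO and 25.96, 29.9 and 25.7 TPM with the MYH7B ASO. The highest scrambled ASO library lay less than 1 TPM below the lowest MYH7B ASO library. Replicate 1 had the highest value, 40.7 TPM. The log2 fold change was 0.37 (SE 0.17, 95% interval -0.01 to 0.75) and did not pass (limma adjusted p = 0.344). In the authors' deposited table it was 0.41 with an adjusted p-value of 0.0854. TEAD2 overlaps CD37 and DKKL1 on the opposite strand in the GENCODE 29 annotation. CD37 averaged 8.97 and DKKL1 1.95 TPM. Whether counting used the strand is not given in the sources used here, so reads in those stretches cannot be told apart.

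TEAD4, which is required for the trophectoderm of the early embryo and also acts in skeletal muscle, was 15.1, 12.9 and 17.4 TPM and then 14.6, 19.4 and 15.8 TPM. The groups overlapped. Its log2 fold change was 0.13 (95% interval -0.28 to 0.54, limma adjusted p = 0.781), and replicate 1 had 24.9 TPM.

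**Figure D2:**
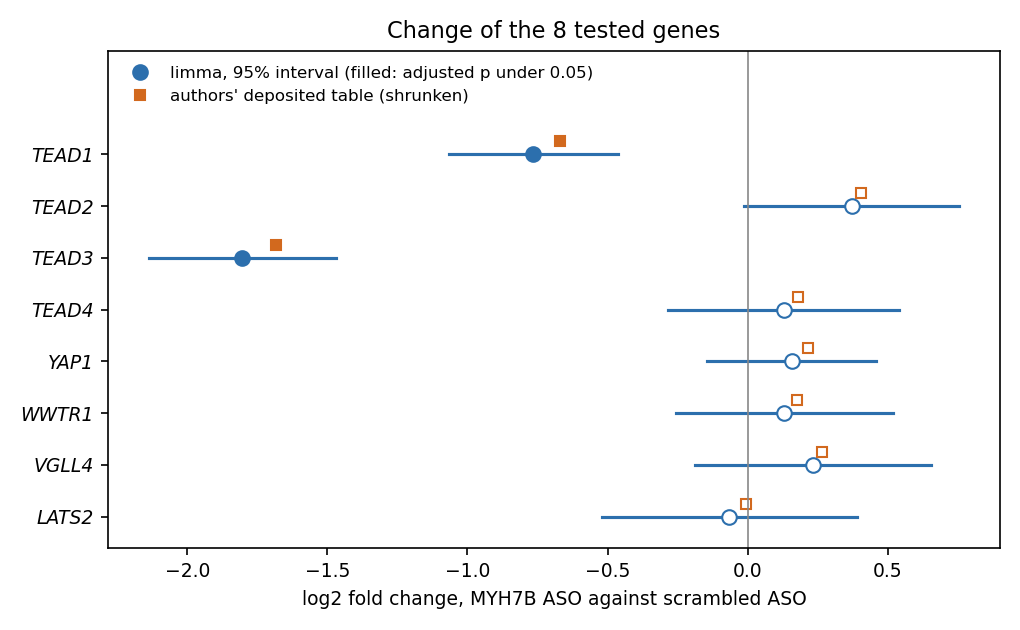
Log2 fold change of the 8 tested genes, MYH7B ASO against scrambled ASO (horizontal axis), from limma on 6 libraries with its 95% interval (circles and lines) and from the authors' deposited table (squares); filled marks have an adjusted p under 0.05. The intervals of TEAD1 and TEAD3 lie below 0 and those of the other 6 genes include 0.

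The TEAD pool was smaller and differently composed in MYH7B ASO replicates 2 to 4. Summed TEAD RNA was 110.1, 112.0 and 117.3 TPM with the scrambled ASO and 75.2, 83.0 and 74.0 TPM with the MYH7B ASO. Every scrambled ASO library was above these 3, and replicate 1 with 106.8 TPM was just below the lowest scrambled ASO library. The group means were 113.1 ± 3.75 and 77.4 ± 4.91 TPM (SD, n = 3 each), a log2 difference of -0.55 (2-sided exact permutation test, p = 0.1, the smallest that 3 against 3 libraries allow). Of the difference of -35.8 TPM, TEAD3 made up -25.9 and TEAD1 -17.6, while TEAD2 differed by 6.26 and TEAD4 by 1.501 in the other direction. With replicate 1 the log2 difference was -0.43 (exact permutation test over 35 splits, p = 0.0571).

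TEAD3 made up 30.4%, 32.9% and 30.3% of TEAD RNA with the scrambled ASO and 13.6%, 11.2% and 11.8% with the MYH7B ASO. Replicate 1, at 12.5%, lay among the other libraries of its group on this measure. The share moved from 31.2% ± 1.47 to 12.2% ± 1.24 (SD, n = 3 each; exact permutation test, p = 0.1), and with replicate 1 included the exact permutation p was 0.0286, the smallest that 35 splits allow. The TEAD1 share was 37.0% ± 2.99 and 31.3% ± 1.69, and the ratio of TEAD1 to TEAD3 went from 1.19 ± 0.07 to 2.58 ± 0.18 (SD, n = 3 each). The TEAD2 share went from 18.4% ± 2.54 to 35.1% ± 0.84 and the TEAD4 share from 13.4% ± 1.68 to 21.4% ± 1.95, while neither gene passed the test in level. A share also moves when another member of the sum changes. In order of level the scrambled ASO libraries had TEAD1, TEAD3, TEAD2 and TEAD4, with all TEAD1 values above all TEAD3 values and no overlap between any neighbours. With the MYH7B ASO the order was TEAD2, TEAD1, TEAD4 and TEAD3, and TEAD2 was above TEAD1 in each of the 3 libraries and in replicate 1.

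**Figure D3:**
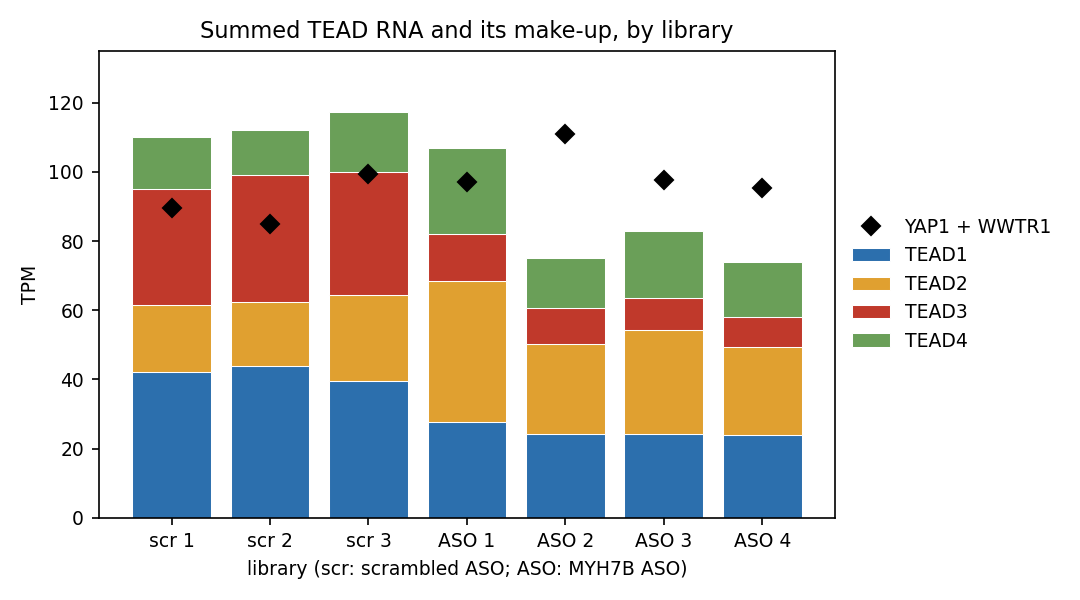
Level in TPM (vertical axis) of TEAD1, TEAD2, TEAD3 and TEAD4 stacked for each of the 7 libraries, with the sum of YAP1 and WWTR1 as diamonds. The TEAD3 segment shrinks most, and the diamonds lie below the top of the stack in every scrambled ASO library and above it in MYH7B ASO replicates 2, 3 and 4 but not in replicate 1.

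The coactivators did not pass the test. YAP1 was the most abundant of the 10 genes in every library, with 63.0, 64.5 and 70.8 TPM with the scrambled ASO and 80.9, 71.7 and 68.9 TPM with the MYH7B ASO. The groups overlapped, and the log2 fold change was 0.16 (95% interval -0.15 to 0.46, limma adjusted p = 0.614). WWTR1 was 26.5, 20.4 and 28.6 TPM and then 29.99, 25.95 and 26.4 TPM. Its log2 fold change was 0.13 (95% interval -0.26 to 0.52, limma adjusted p = 0.760). For both genes the intervals leave out a fall of the size seen for TEAD3 or TEAD1. The log2 ratio of WWTR1 to YAP1 was -1.40 ± 0.22 and -1.43 ± 0.04 (SD, n = 3 each; exact permutation test, p = 1), and YAP1 was the more abundant of the pair in every library. Both genes overlap low antisense transcripts, AP000942.2 with a mean of 1.74 TPM and WWTR1-AS1 with 0.608 TPM.

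Measured against the TEAD pool, coactivator RNA was 0.812, 0.758 and 0.847 TPM per TPM of TEAD with the scrambled ASO and 1.48, 1.18 and 1.29 with the MYH7B ASO. The groups did not overlap, and replicate 1 at 0.909 was also above the highest scrambled ASO library. In the sum of YAP1 and WWTR1 itself the groups overlapped, with 91.2 ± 7.39 and 101.3 ± 8.40 TPM (SD, n = 3 each). The ratio also moves when summed TEAD changes, so it is not separate from the fall of TEAD3 and TEAD1. The difference of the log2 ratio was 0.70, and 0.57 with replicate 1 (2-sided exact permutation tests, p = 0.1 and 0.0571). Over the 5 such tests, of summed TEAD, the TEAD3 share, this ratio, WWTR1 against YAP1 and VGLL4 against the coactivators, the Benjamini-Hochberg adjusted exact p of the first 3 was 0.167 (0.0952 with replicate 1). With 3 against 3 libraries none can reach 0.05.

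VGLL4, a TEAD cofactor that represses YAP1-driven transcription and is broadly expressed, was 26.9, 22.2 and 34.6 TPM with the scrambled ASO. It was 35.6, 31.2 and 30.9 TPM with the MYH7B ASO and 45.4 TPM in replicate 1. The groups overlapped because scrambled ASO replicate 3 was high. The log2 fold change was 0.23 (95% interval -0.19 to 0.65, limma adjusted p = 0.597). Relative to YAP1 and WWTR1 together, the log2 ratio of VGLL4 differed by 0.09 (exact permutation test, p = 0.7). Part of VGLL4 overlaps ATG7 on the opposite strand, and reads there cannot be told apart without strand. ATG7 was 12.6, 16.8 and 6.02 TPM with the scrambled ASO and 2.55, 4.52 and 3.13 TPM with the MYH7B ASO. Its part in the VGLL4 values was not tested.

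VGLL3, a TEAD cofactor linked to mesenchymal and muscle cells, had 1.03, 0.725 and 2.31 TPM with the scrambled ASO and 0.736, 0.273 and 0.393 TPM with the MYH7B ASO. Replicate 1 had 1.73 TPM, and the groups overlapped. With no filter on low values its log2 fold change was -0.64 (95% interval -1.44 to 0.16, limma adjusted p = 0.649). Its log2 fold change in the authors' deposited table was -0.61 (adjusted p-value 0.106). VGLL2, a cofactor of skeletal muscle, was listed at 0 in all libraries except scrambled ASO replicate 1, which had 0.0165 TPM.

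LATS2 phosphorylates YAP1 and TAZ and is itself a transcriptional target of YAP1. Its level was 8.605, 8.64 and 12.1 TPM with the scrambled ASO, 8.69, 10.8 and 8.28 TPM with the MYH7B ASO, and 15.9 TPM in replicate 1. The groups overlapped, and the log2 fold change of -0.07 had a 95% interval from -0.52 to 0.39 (limma adjusted p = 0.911). Its sign turned with replicate 1 added (0.12) and without scrambled ASO replicate 3 (0.08). In the authors' deposited table the 2 calls among the 9 members listed were TEAD3 and TEAD1, both lower. That table is the authors' own comparison of the same 2 groups and not a separate experiment. That table called 8.71% of its genes with an adjusted p-value, 5.69% lower and 3.02% higher.

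TEAD3 spans 23.5 kb of chromosome 6 (35473597 to 35497076) and TEAD1 spans 269.9 kb of chromosome 11 (12674591 to 12944483), in GENCODE 29 on GRCh38. WWTR1 on chromosome 3 and VGLL4 on the same chromosome, which did not pass, span 219.5 and 215.3 kb, and TEAD2 on chromosome 19 spans 21.9 kb. The 2 called genes thus include the longest of the 10 and one of the shorter ones. TEAD2 lies at 49340595 to 49362457, TEAD4 on chromosome 12 at 2959330 to 3040673, YAP1 on chromosome 11 at 102110461 to 102233423, WWTR1 at 149517235 to 149736714, VGLL4 at 11556070 to 11771350, and LATS2 on chromosome 13 at 20973032 to 21061547.

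Other kinases of the Hippo pathway, LATS1 among them, with their cofactors and further regulators of the pathway, were examined as a list of 30 genes. All 30 were tested, 2 were called lower and none higher, against 1.48% of all tested genes called lower and 0.181% higher. A log2 fold change below 0 was found for 24 of the 30 and for 8767 of all 15988 genes. The median was -0.20, against -0.04 over all genes. At an unadjusted p under 0.05 there were 7 lower and none higher, against 1688 lower and 747 higher of the 15988 (15.2% in either direction). The authors' deposited table called 6 of the 30 lower and none higher, against 5.69% and 3.02% of its genes. NF2, also called merlin, is a scaffold that activates LATS kinases at the membrane. It was 13.7, 10.5 and 9.27 TPM with the scrambled ASO and 2.92, 2.29 and 2.35 TPM with the MYH7B ASO. Replicate 1 had 5.18 TPM, also below every scrambled ASO library. NF2 fell by 1.78 on the log2 scale (SE 0.21, limma adjusted p = 0.00817). Without MYH7B ASO replicate 4 the adjusted p was 0.0506. SLMAP is an adaptor of the STRIPAK phosphatase complex, which restrains the upstream Hippo kinases, and is also a membrane protein of muscle. It was 29.4, 36.3 and 39.96 TPM and then 11.3, 10 and 8.40 TPM, with no overlap. SLMAP fell by 1.73 on the log2 scale (SE 0.18, limma adjusted p = 0.00534) and was called without each library in turn. NF2 and SLMAP have opposite known effects on the kinase cascade. LATS1, the paralog of LATS2, was 5.33 ± 0.46 and 4.80 ± 0.25 TPM (SD, n = 3 each), with a log2 fold change of -0.13 (95% interval -0.55 to 0.30, limma adjusted p = 0.795).

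**Figure D4:**
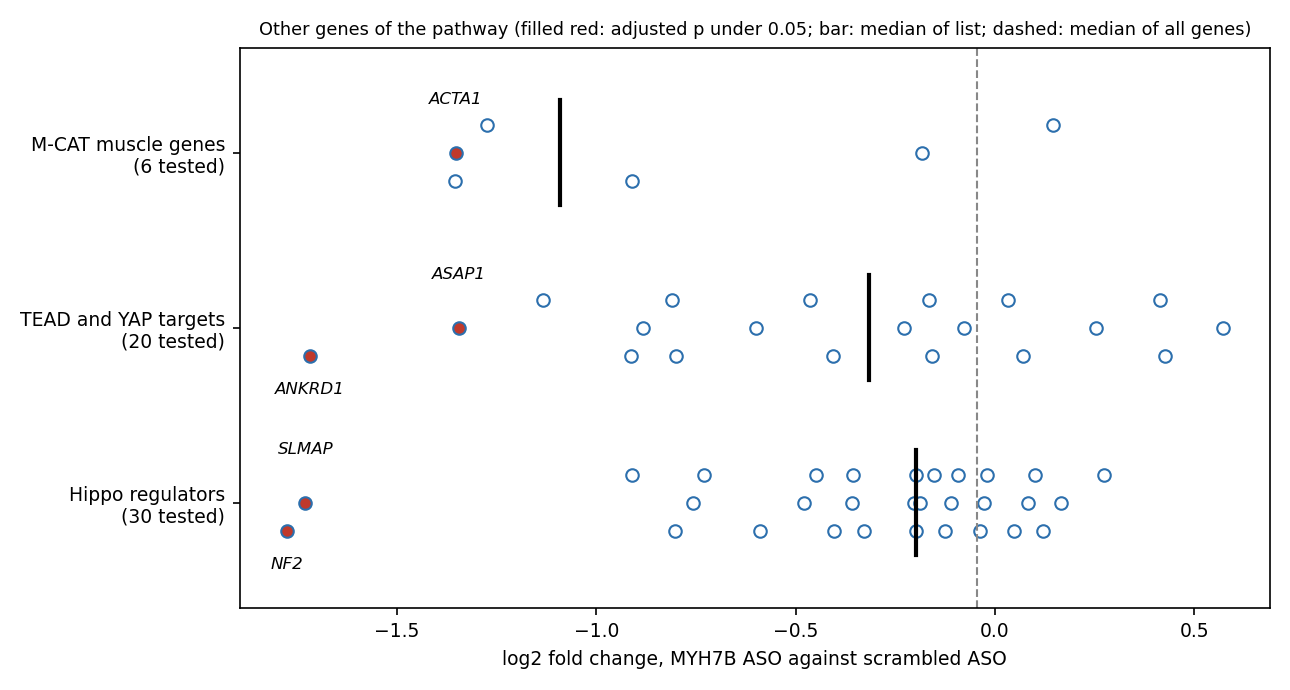
Log2 fold change of each tested gene, MYH7B ASO against scrambled ASO (horizontal axis), in 3 lists: Hippo regulators, TEAD and YAP targets, and muscle genes with M-CAT elements. Red circles are the 5 genes with a limma adjusted p under 0.05, all of them below 0; black bars are list medians and the dashed line is the median of all tested genes.

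To set the sequence beside the values of some of these genes, the bases before the transcript start were taken from RefSeq promoters (GRCh38.p14), where 8 of the 10 members had an entry and TEAD1 and TEAD4 did not. The motif searched was GGAATG on either strand (CATTCC on the strand printed), the core of the M-CAT element. Printed are TEAD3, the member with the largest fall, YAP1, the only one of those 8 with the motif before its start, and 3 genes known as TEAD targets. Each is 250 bases, 5′ to 3′ along the gene, with the motif in capitals. TEAD3 is chr6:35497080-35497329 (minus strand), YAP1 is chr11:102110197-102110446 (plus strand), and on the minus strand ANKRD1 is chr10:90921088-90921337, CCN2 is chr6:131951373-131951622 and ACTA1 is chr1:229434095-229434344.
TEAD3: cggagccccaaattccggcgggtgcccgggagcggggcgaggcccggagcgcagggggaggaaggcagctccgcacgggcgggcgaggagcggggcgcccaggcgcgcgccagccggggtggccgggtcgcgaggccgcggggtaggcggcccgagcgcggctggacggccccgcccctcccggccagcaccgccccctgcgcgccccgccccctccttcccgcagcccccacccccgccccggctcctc
YAP1: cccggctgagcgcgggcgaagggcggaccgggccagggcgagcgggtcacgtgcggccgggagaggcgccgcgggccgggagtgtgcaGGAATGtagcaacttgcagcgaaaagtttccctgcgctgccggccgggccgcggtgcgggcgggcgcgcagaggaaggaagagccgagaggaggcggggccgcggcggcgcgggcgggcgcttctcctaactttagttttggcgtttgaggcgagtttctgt
ANKRD1: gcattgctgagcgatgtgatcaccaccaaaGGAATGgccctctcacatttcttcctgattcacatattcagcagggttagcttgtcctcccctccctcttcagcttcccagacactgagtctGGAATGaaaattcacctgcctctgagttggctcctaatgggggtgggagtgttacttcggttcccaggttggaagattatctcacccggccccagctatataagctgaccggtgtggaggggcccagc
CCN2: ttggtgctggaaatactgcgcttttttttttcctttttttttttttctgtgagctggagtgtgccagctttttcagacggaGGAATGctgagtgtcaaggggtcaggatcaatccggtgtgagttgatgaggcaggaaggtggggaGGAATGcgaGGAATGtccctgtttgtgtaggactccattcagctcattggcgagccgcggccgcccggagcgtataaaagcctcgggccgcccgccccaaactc
ACTA1: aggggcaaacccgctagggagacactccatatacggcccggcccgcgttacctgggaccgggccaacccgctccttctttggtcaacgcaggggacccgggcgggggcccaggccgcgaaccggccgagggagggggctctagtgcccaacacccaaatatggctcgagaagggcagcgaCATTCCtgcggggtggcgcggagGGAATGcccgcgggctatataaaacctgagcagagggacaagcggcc

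The windows of ANKRD1 and ACTA1 hold the motif 2 times, that of CCN2 3 times and that of YAP1 once, and these letters are not in the TEAD3 window. Over windows of 300 bases, from 250 before to 50 after the start, 2 of the 14 promoters of the members held the motif (14.3%), those of YAP1 and LATS2. Of all 35116 promoters 14.0% did. Among the targets described below, of which 16 of 22 had an entry, it was in 9 of 19 promoters (47.4%). Of the 6 M-CAT muscle genes, which are known for this element, 4 had an entry, and 4 of their 5 promoters held it. A match describes these letters and does not show that TEAD was bound there.

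Genes commonly used as readouts of YAP1 and TEAD activity formed a list of 22, of which 20 were tested. None was called higher and 2 were called lower, against 0.181% and 1.48% of all tested genes. Of the 20, 14 had a log2 fold change below 0, against 8767 of all 15988, and the median was -0.32 against -0.04. At an unadjusted p under 0.05 there were 9 lower and 2 higher, against 1688 lower and 747 higher of the 15988. The authors' deposited table called 7 of 20 lower and 1 higher, against 5.69% and 3.02% of its genes. ANKRD1, a cardiac ankyrin repeat protein of the sarcomere and nucleus, was 97.3, 56.4 and 116.3 TPM with the scrambled ASO and 20.3, 32.4 and 25.1 TPM with the MYH7B ASO. All of the latter, and replicate 1 with 27.9 TPM, were below all of the former. ANKRD1 fell by 1.72 on the log2 scale (SE 0.28, limma adjusted p = 0.0251), and the call was lost in 4 of the 6 fits that left out a library: scrambled ASO 1 (limma adjusted p = 0.0930), scrambled ASO 3 (0.0667), MYH7B ASO 2 (0.0954) and MYH7B ASO 4 (0.119). ASAP1, a GTPase-activating protein of focal adhesions, was 23.3, 34.2 and 25.1 TPM and then 12.1, 9.61 and 8.85 TPM. It fell by 1.34 on the log2 scale (SE 0.20, limma adjusted p = 0.0170), and was not called without MYH7B ASO replicate 3 or 4 (limma adjusted p = 0.0674 and 0.0918).

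The secreted matricellular proteins CCN1 and CCN2, the best known YAP1 targets, did not pass. CCN1 was 24.0, 23.2 and 56.6 TPM with the scrambled ASO and 25.8, 36.5 and 23.5 TPM with the MYH7B ASO, so that scrambled ASO replicate 3 stood above the rest. Its log2 fold change was -0.17 (95% interval -0.94 to 0.61, limma adjusted p = 0.861). CCN2 was 62.4, 50.6 and 123.0 TPM and then 36.6, 48.5 and 31.6 TPM, a log2 fold change of -0.91 (SE 0.32, limma adjusted p = 0.219). Scrambled ASO replicate 3 was again the highest, and the groups did not overlap, although replicate 1 with 77.9 TPM lay within the scrambled ASO range. The authors' deposited table called CCN2 lower (log2 fold change -0.74, adjusted p-value 0.00669) and not CCN1 (-0.14, 0.794).

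Of 6 muscle genes with described M-CAT elements 1 was called, against 1.66% of all tested genes. A log2 fold change below 0 was found for 5 of the 6 and for 8767 of all 15988, and the median was -1.09. At an unadjusted p under 0.05 there were 4 lower and none higher, against 1688 lower and 747 higher of the 15988. ACTA1, the actin of skeletal muscle that the fetal heart also expresses, was 21.5, 34.4 and 29.01 TPM with the scrambled ASO and 10.7, 10.4 and 9.87 TPM with the MYH7B ASO. It fell by 1.35 on the log2 scale (SE 0.19, limma adjusted p = 0.0156). The call was lost with replicate 1 added (0.0621) and, with limma adjusted p between 0.0558 and 0.0833, when scrambled ASO replicate 3 or any 1 of the 3 MYH7B ASO libraries was left out. The other 3 with such a p are named after their values were seen. MYH7, the beta myosin heavy chain, had a log2 fold change of -1.28 (limma adjusted p = 0.148), and its groups overlapped. NPPB, which encodes B-type natriuretic peptide, had one of -1.36 (limma adjusted p = 0.0882), and ACTA2, smooth muscle actin, one of -0.91 (limma adjusted p = 0.0910), neither with overlap between groups. NPPB and ACTA2 were called lower in the authors' deposited table (adjusted p-values 0.00754 and 0.00463), and MYH7 was not (0.0730). TNNT2, cardiac troponin T, was 1238 ± 118 and 1097 ± 196 TPM (SD, n = 3 each), with a log2 fold change of -0.18 (95% interval -0.53 to 0.16, limma adjusted p = 0.611). MYH6, the alpha myosin heavy chain, had a log2 fold change of 0.14 (95% interval -0.33 to 0.62, limma adjusted p = 0.788).

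Markers of the cells that could be in such a culture also differed between the groups. The 10 fibroblast markers summed to 2922 to 5267 TPM in the scrambled ASO libraries and 1373 to 2109 TPM in MYH7B ASO replicates 2 to 4. In replicate 1 they summed to 4169 TPM. Most of the sum came from the collagen genes COL1A1, COL1A2 and COL3A1, with means of 1667, 765 and 1099 TPM with the scrambled ASO. LUM and COL1A2 were called lower and none higher, against 1.48% and 0.181% of all tested genes. The fibroblast markers did not all run one way. TCF21, a transcription factor of epicardial cells and fibroblasts, was 7.40 to 10.3 TPM with the scrambled ASO and 12.1 to 18.4 TPM with the MYH7B ASO. PDGFRA, a growth factor receptor of mesenchymal cells, was 19.8 to 27.8 and 32.9 to 41.1 TPM. Their log2 fold changes of 0.71 and 0.60 did not pass (limma adjusted p = 0.168 and 0.152), and both were called higher in the authors' deposited table (adjusted p-values 0.0027 and 0.00287). That table called 5 of the 10 fibroblast markers lower and only these 2 higher, against 5.69% and 3.02% of its genes. The 4 smooth muscle markers summed to 456.7 to 705.6 and 319.6 to 387.3 TPM, and to 655.4 TPM in replicate 1, within the scrambled ASO range. MYH11 was called lower and none higher, against 1.48% and 0.181% of all tested genes. A log2 fold change below 0 was found for 3 of the 4, and CNN1 had one of 0.24 (limma adjusted p = 0.454). The markers named here were picked after their values were seen. The 8 cardiomyocyte markers were all present and summed to 6563 to 7329 and 4959 to 5933 TPM, and to 4949 TPM in replicate 1. MYL7 made up most of this sum, with means of 5204 and 4159 TPM. None of the 8 was called. A log2 fold change below 0 was found for 7, against 8767 of all 15988 genes, and NKX2-5 had one of 0.39 (limma adjusted p = 0.503). At an unadjusted p under 0.05 there were 5, all lower, against 1688 lower and 747 higher of all 15988 genes. The authors' deposited table called 1 of the 8, RYR2, lower (log2 fold change -0.84, adjusted p-value 0.000232) and none higher, against 5.69% and 3.02% of its genes. The 5 epicardial markers summed to 774.3 to 1066 and 866.5 to 1123 TPM. The endothelial markers PECAM1, CDH5 and VWF and the pluripotency markers NANOG, LIN28A and SOX2 averaged under 0.5 TPM. Of the other endothelial markers, TEK was 8.08 to 12.2 and 3.23 to 6.86 TPM and KDR was 6.89 to 9.18 and 7.43 to 9.82 TPM. Neither was called (limma adjusted p = 0.111 and 0.846), while TEK was called lower in the authors' deposited table (adjusted p-value 0.00346). The remaining pluripotency markers were low, with POU5F1 at 1.11 to 2.70 TPM and DNMT3B at 0.972 to 1.87 TPM over the 6 libraries. In bulk RNA fewer cells of a type and less RNA per cell cannot be told apart, and the part of these markers in the falls of TEAD1, TEAD3 and the target genes was not tested.

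**Figure D5:**
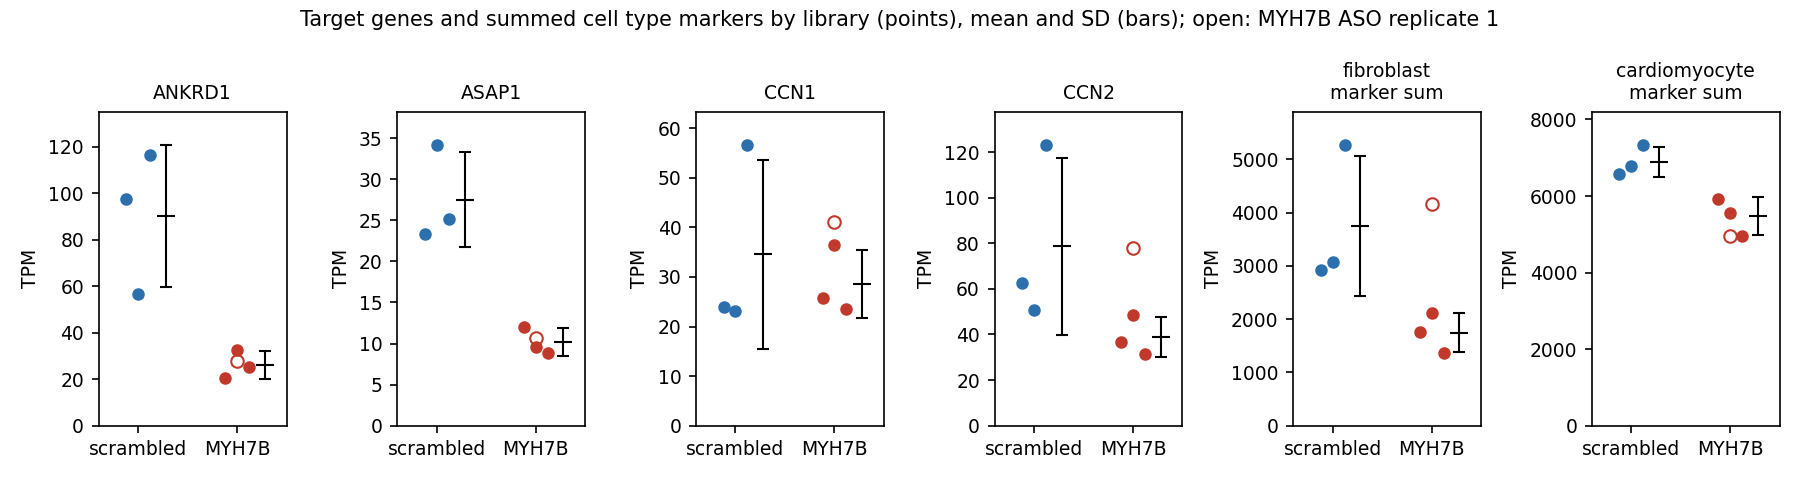
Level in TPM (vertical axes, starting at 0) of 4 YAP1 and TEAD target genes and of the summed fibroblast and cardiomyocyte markers, in scrambled ASO (blue) and MYH7B ASO (red) libraries, with mean and SD of 3 libraries per group and MYH7B ASO replicate 1 as an open circle. ANKRD1, ASAP1 and the cardiomyocyte sum do not overlap between groups, the open circle included. CCN2 and the fibroblast sum do not overlap when the open circle is left out, and CCN1 overlaps. Scrambled ASO replicate 3 is the highest library in every panel except ASAP1.

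Genes whose levels ran most like TEAD3 over the 6 libraries were TMTC2, FBXL7, GMDS, AHCYL2 and ETFA, with Pearson correlations of log2(TPM + 1) from 0.995 to 0.997. For TEAD1 they were PRKG1, MXI1, FBXL17, MPV17L and TTC3, with correlations from 0.996 to 0.998. All 10 of these genes had lower means with the MYH7B ASO, as TEAD1 and TEAD3 did, and the 6 libraries form 2 groups, so the correlations include that group difference and are given without a test.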

How the data were processed

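Poly-A RNA of 7 libraries was analysed, 3 with the scrambled ASO and 4 with the MYH7B ASO. The authors deposited TPM for 60234 genes. The authors also deposited a comparison table, with a mean normalized count per gene (a signal over all libraries), a log2 fold change that the table's name calls shrunken, its error, a score (the test statistic), and raw and adjusted p-values, per the file headers. The submitters' processing notes name GRCh38.p13 and DESeq2 with no role. The aligner, quantifier and annotation release are not given in the sources used here. Each TPM column sums to 1000000, so the depth of the libraries is unknown and no counting interval is given. Between 15290 and 16207 genes per library reached 1 TPM in the 6 libraries compared. Their correlations with each other were 0.959 to 0.979 (log2(TPM + 1), across genes).

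MYH7B ASO replicate 1 has values in 58721 positions, the number of chromosomal genes in GENCODE 29. As deposited, its correlations with the other libraries had a median of 0.408, and of 0.955 once assigned to those sorted identifiers. It was kept out of the main comparison and added as an alternative.

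The tests used limma 3.58.1 (R 4.3.3) on genes whose mean reached 1 TPM (lmFit, eBayes with trend, log2(TPM + 1), no covariate, Benjamini-Hochberg adjustment), and the procedure was tested on simulated data. Fold changes on this scale understate the change of low genes. Ratios over libraries were compared with 2-sided exact permutation tests over 20 splits, or 35 with replicate 1. Python 3.11.15 and pandas 2.3.3 were used for tables. Alternatives were pseudocounts of 0.1 and 5, no filter or a mean of 5 TPM, median-ratio scaling, removal of mitochondrially encoded genes, other limma settings, replicate blocks, and leaving out each library. The members and lists were chosen with earlier results of these data known. Named genes are the members, MYH7B, up to 6 called genes of each pathway, target or partner list (and its 2 most abundant where fewer than 2 were called), CCN1, CCN2, ANKRD1, LATS1, the 5 genes most like TEAD3 and TEAD1 each, and genes overlapping a member.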

Additional observations from a re-analysis of the deposited data

Results flagged for a closer look

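Over the 4 MYH7B ASO libraries, each of 36 measures was checked for 1 value far from the other 3, which was found for 7. Chance flags about 1 in 20, and 6 of the 7 fell in replicate 1, the library deposited in another gene order. Its TEAD1 level was 27.8 TPM, against 23.8 to 24.4 TPM in the others. Its ACTA1 level was 3.50 TPM, against 9.87 to 10.7 TPM. YWHAE was 568.0 TPM there against 368.7 to 397.5 TPM, and YWHAZ was 201.6 TPM against 261.1 to 271.2 TPM. VGLL4 stood at 0.467 of the sum of YAP1 and WWTR1 in replicate 1, against 0.319 to 0.324 in the others, or -1.10 against -1.65 to -1.62 on the log2 scale. In replicate 2 the sum of YAP1 and WWTR1 was 110.9 TPM, against 95.3 to 97.7 TPM in the others.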

How the results depend on the processing

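Of the 2 called members TEAD3 was called under every alternative without a replicate block, while TEAD1 was not called with no filter on low values (limma adjusted p = 0.0556), without the intensity trend (0.0782), with replicate 1 or without any 1 library. Called members therefore numbered 1 under each of these. Over all genes limma called 265, and 40 with no filter, 150 without the trend, 170 with replicate 1 and 53 to 149 without 1 library, fewest without MYH7B ASO replicate 4. Among Hippo regulators 1 was called with no filter and 1 to 2 without 1 library. Among targets 0 were called with no filter, 1 without the trend and 0 to 2 without 1 library. Among M-CAT muscle genes 0 were called with no filter or with replicate 1 and 0 to 2 without 1 library. Other pseudocounts, scalings and sample weights kept both member calls. The cause of these moves was not tested.

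A replicate block was fitted on the numbers in the titles (2 pairs), those in the descriptions (2 pairs) and those in the titles with replicate 1 (3 pairs). Under each limma called 0 genes, 0 members and 0 of each list. Unadjusted p-values under 0.05 numbered 1718, 1096 and 1773. TEAD3 then had a log2 fold change of -1.79, -1.89 and -1.61 (limma adjusted p = 0.331, 0.720 and 0.158). Same-titled libraries had correlations of their deviations of 0.019, 0.142 and 0.0205, and those with the same description number 0.019, 0.0207 and -0.118. Not every library correlated best with its own number. With so few libraries these correlations cannot settle whether the numbers pair the libraries.

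Uncalled log2 fold changes changed sign as follows. Without 1 library WWTR1 ran from -0.0070 (without scrambled ASO replicate 2) to 0.23, LATS2 from -0.17 to 0.084 (without scrambled ASO replicate 3), YWHAE from -0.015 (without scrambled ASO replicate 2) to 0.075, and CCN1 from -0.38 to 0.24 (without scrambled ASO replicate 3). With replicate 1 LATS2 was 0.12 and YWHAZ -0.081, and with the block added LATS2 was 0.22, YWHAZ -0.11 and CCN1 0.095. MYH6 was -0.090, -0.011 and -0.055 under the 3 blocks. The log2 ratio of WWTR1 to YAP1 ran from -0.15 to 0.055 without 1 library and was 0.034 over the title pairs, and that of VGLL4 to the coactivators ran from -0.012 to 0.19. The TEAD3 share differed by -18.9 percentage points with replicate 1, where the exact permutation p can pass the threshold.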

Other observations

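Other proteins that meet YAP1, TAZ or TEAD formed a list of 14, of which 13 were tested and none was called by limma, against 1.66% of all genes. The median log2 fold change was 0.02. At an unadjusted p under 0.05 there were 2 lower, MEF2A and MAX, and 1 higher, YWHAQ, chosen here after their values were seen. MEF2A, a muscle transcription factor, was 71.4, 104.7 and 66.5 TPM with the scrambled ASO and 50.2, 36.7 and 46.1 TPM with the MYH7B ASO, with no overlap. Its log2 fold change was -0.84 (SE 0.20, limma adjusted p = 0.0977). MEF2A was called lower in the authors' deposited table (-0.68, adjusted p-value 0.00436). The 14-3-3 proteins YWHAE and YWHAZ, which hold phosphorylated YAP1 in the cytoplasm, were 382.1 ± 25.1 and 387.9 ± 16.6 TPM, and 262.2 ± 9.94 and 265.3 ± 5.27 TPM (SD, n = 3 each). Their log2 fold changes were 0.02 each, with 95% intervals from -0.24 to 0.28 and from -0.23 to 0.27. VGLL1, which binds TEAD in the manner of the other VGLL proteins, was listed at 0 in 5 of the 6 libraries.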
